A study of Mus musculus with 4 samples.

Results

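The semaphorins, plexins and neuropilins are a family of guidance ligands and their receptors, and all 31 genes whose symbols carry these names were followed here, out of 28692 genes listed in the counts. They comprised 20 semaphorins, 9 plexins and 2 neuropilins, and the genes were taken by symbol, without a threshold on expression. Semaphorins are secreted or membrane-bound signals that steer growing axons and migrating cells, and they also act in vessel growth and in the shaping of epithelial and mesenchymal tissues. Plexins are their signalling receptors. Most class 3 semaphorins, which are secreted, cannot bind a plexin alone and first dock on a neuropilin, *Nrp1* or *Nrp2*, whereas *Sema3e* binds plexin D1 directly and the membrane-bound classes bind plexins without a neuropilin. In the developing gut this family is best known for guiding extrinsic and enteric axons and enteric neural crest cells.

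Single-cell RNA sequencing had been performed on stromal cells of untreated mouse embryos at E12.5, with 2 small intestinal (SI) and 2 large intestinal (LI) libraries, where LI also took in the cecum. All embryos came from EYFP males, which carry yellow fluorescent protein on a C57BL/6 background, mated with C57BL/6Nrj females, so the SI and LI libraries shared the genotype, the stage and the lack of treatment. The 2 libraries of a region came from separate experiments with several pooled embryos, so p-values measure the spread between 2 such pools per region. The sort had kept live cells with YFP and β1 integrin and had discarded cells bearing EpCAM, CD31, Ter119 or CD45, so epithelium, endothelium, erythroid cells and leukocytes were largely absent as sources or targets of these signals. The sample titles gave stage and region, although other labels name adult tissue or colon.

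After filtering, 22094 cells were kept, 4603 to 6247 per library, with 31630548 to 62886525 unique molecular identifiers (UMIs, each counting 1 captured transcript) deposited per library. LI replicate 1 was the shallowest, where the median kept cell had 4220.5 UMIs, against medians of 8382 to 8829 in the other 3 libraries. Pairs of libraries shared 8 to 15 cell barcodes. Cells were clustered without the family's genes, and clusters were named from marker lists. The groups, whose names mean cells like these types, were mesothelial (1323 cells), neural (1246 cells), smooth muscle (5070 cells) and other mesenchyme (14284 cells in 5 clusters). Clusters 3 (2044 cells) and 6 (1197 cells) of other mesenchyme each had 1 marker of another type among their 10 leading genes, *Rgs5* of pericytes and *Epcam* of epithelium, so the tests were also run without them. A further 171 cells led by *Pf4*, *Afp* and hemoglobin genes stayed unnamed. The 14 mesothelial markers summed to 2482 to 3001 UMIs per 1000000 UMIs of the sum (CPM) in mesothelial cells and 7.89 to 12.2 CPM in neural cells, and the 18 neural markers summed to 3428 to 5407 CPM in neural cells and at most 273.5 CPM elsewhere. The other 2 lists were less distinct. The 13 smooth muscle markers summed to 1809 to 11125 CPM in smooth muscle and 1003 to 2273 CPM in other mesenchyme, which overlap, and the 10 mesenchyme or fibroblast markers to 1119 to 1799 CPM in other mesenchyme and 1448 to 3665 CPM in mesothelial cells. UMIs were then summed per library and group, and every level below is the CPM of such a sum. UMI counts are not per transcript length, so levels are compared between groups and regions for each gene, and not between genes.

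The 4 groups differed in which members of the family they expressed. Of the 20 semaphorins, 10 had their highest mean level in mesothelial cells, among them all 7 class 3 semaphorins (*Sema3a* to *Sema3g*). However, *Sema3g* rested on 3 UMIs there, and the libraries of *Sema3c* overlapped between groups. Of these, *Sema3b*, *Sema3g*, *Sema4a*, *Sema4f* and *Sema7a* stayed below 10 CPM in every sum. How often genes in general were highest in mesothelial cells was not counted. Neural cells held the highest mean of 5 semaphorins, other mesenchyme of 3 and smooth muscle of 2. Of the 11 receptors, 4 were highest in mesothelial cells, 3 in neural cells, and 2 each in smooth muscle and other mesenchyme. The 10 genes that reached 50 CPM in all 4 libraries of a group, or were called in a test of regions or of the interaction of region and group, are given library by library. 1 further gene, *Plxnb3*, never exceeded 3 UMIs in a sum. The other 20 stayed at or below 65.6 CPM in every sum, and 10 of them stayed below 10 CPM throughout.

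**Figure D1:**
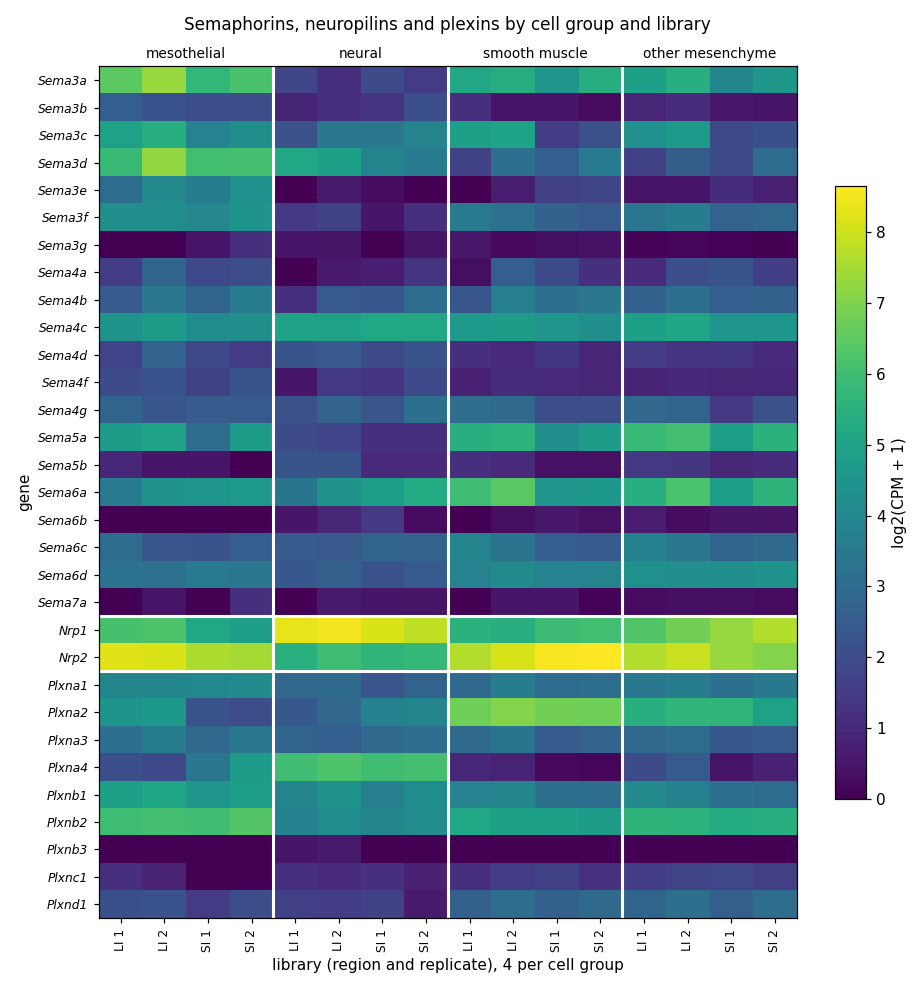
Heat map of the 31 family members (rows) in the 16 sums of 4 cell groups by 4 libraries (columns), coloured by log2(CPM + 1), with ligands above receptors. The mesothelial columns are the brightest (highest) for *Sema3a* and *Sema3d*, and the neural columns for *Nrp1* and *Plxna4*.

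The 2 neuropilins had opposite distributions. *Nrp1*, the co-receptor for *Sema3a* and for VEGF, was at 325 and 364 CPM in the LI neural sums and 284 and 226 CPM in the SI neural sums. In other mesenchyme it was at 78.7 and 112 CPM (LI) and 153 and 199 CPM (SI), and every neural sum lay above every mesenchymal sum (fitted log2 fold change 1.25 ± 0.33). Smooth muscle held 44.8 and 42.4 CPM (LI) and 60.6 and 64.03 CPM (SI), all below the mesenchymal sums (log2 fold change −1.32 ± 0.10), and mesothelial cells held 69.4 and 75.1 CPM (LI) and 34.5 and 27.9 CPM (SI). *Nrp2*, the preferred co-receptor of *Sema3f*, was instead lowest in neural cells, at 43.9 and 61.7 CPM (LI) and 49.5 and 53.6 CPM (SI), with no overlap with any other group. Its smooth muscle sums were 202 and 279 CPM (LI) and 384 and 402 CPM (SI), and its mesothelial sums 297 and 288 CPM (LI) and 189.9 and 177 CPM (SI). In other mesenchyme *Nrp2* was at 201 and 245 CPM (LI) and 159 and 132 CPM (SI), so the ranges of the 3 non-neural groups overlapped. Of the 4 groups, neural cells thus had the highest *Nrp1* and the lowest *Nrp2* level.

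Among the plexins, 2 A-type receptors marked different groups. *Plxna4*, which pairs with *Nrp1* to receive *Sema3a*, was at 63.4 and 74.7 CPM (LI) and 63.4 and 67.5 CPM (SI) in neural cells. Every other sum was lower: 0.408 to 4.45 CPM in other mesenchyme, 0.121 to 1.00 CPM in smooth muscle and 2.77 to 25.97 CPM in mesothelial cells. Its fitted log2 fold change between neural cells and other mesenchyme was 5.33 ± 0.47. *Plxna2*, a receptor of *Sema6a*, was highest in smooth muscle, at 106 and 132 CPM (LI) and 112 and 106 CPM (SI), against 42.00 and 50.3 CPM (LI) and 49.6 and 30.1 CPM (SI) in other mesenchyme, again without overlap (log2 fold change 1.46 ± 0.10). Neural cells had 4.22 and 6.28 CPM (LI) and 13.02 and 13.9 CPM (SI), and mesothelial cells 21.5 and 23.3 CPM (LI) and 3.63 and 3.17 CPM (SI).

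Of the B-type plexins, which bind class 4 semaphorins, *Plxnb1* and *Plxnb2* had their highest means in mesothelial cells, and *Plxnb3* had no UMI there. *Plxnb2* was at 61.8 and 65.98 CPM (LI) and 63.2 and 80.4 CPM (SI) in mesothelial cells and at 48.01 and 46.9 CPM (LI) and 38.8 and 43.1 CPM (SI) in other mesenchyme. Smooth muscle had 35.8 and 29.4 CPM (LI) and 28.3 and 25.6 CPM (SI), and neural cells the least, 13.1 and 17.4 CPM (LI) and 13.9 and 17.1 CPM (SI). The 4 groups did not overlap for *Plxnb2*. *Plxnb1* was at 21.8 to 32.8 CPM in mesothelial cells and at 7.18 to 15.7 CPM in other mesenchyme. *Plxnd1*, the *Sema3e* receptor best known from endothelium, and *Plxnc1*, the *Sema7a* receptor, were low throughout, at 5.20 to 8.06 CPM and 2.00 to 2.58 CPM in other mesenchyme, where their means were highest. *Plxna1* reached 14.6 to 16.5 CPM in mesothelial cells, and *Plxna3* stayed between 4.28 and 11.5 CPM in all 16 sums. Reads of *Plxna1*, *Plxna4* and *Plxnb1* could include reads of antisense genes that overlap their exons (*Gm26811*, *Plxna4os3* and *Gm7628*), as the strand setting of the counting is not given in the sources used here.

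Of the secreted class 3 semaphorins, *Sema3a*, *Sema3c*, *Sema3d* and *Sema3e* lie in 1 stretch of chromosome 5, in the order *Sema3d*, *Sema3a*, *Sema3e*, *Sema3c* (starts at 12383385, 13125414, 14025276 and 17574281 in mm10). The 4 starts span 5.19 Mb, in which 32 listed genes start. Their promoter windows are shown because these neighbours shared their highest mean level in mesothelial cells while differing in the other groups. Each window runs from 250 bases before to 50 bases after a RefSeq transcript start (GRCm38.p6, + strand, 5′ to 3′), with CG dinucleotides in capitals. The windows are chr5:12382916-12383215 (*Sema3d*), chr5:13396534-13396833 (*Sema3a*), chr5:14025026-14025325 (*Sema3e*) and chr5:17574566-17574865 (*Sema3c*), and those of *Sema3a* and *Sema3c* lie inside the annotated gene.
Sema3d: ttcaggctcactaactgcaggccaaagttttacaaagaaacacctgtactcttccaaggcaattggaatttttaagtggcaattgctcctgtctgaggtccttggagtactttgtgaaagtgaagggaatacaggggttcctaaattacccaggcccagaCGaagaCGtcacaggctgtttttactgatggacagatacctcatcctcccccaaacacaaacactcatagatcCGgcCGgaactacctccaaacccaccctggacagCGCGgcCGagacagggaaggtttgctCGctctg
Sema3a: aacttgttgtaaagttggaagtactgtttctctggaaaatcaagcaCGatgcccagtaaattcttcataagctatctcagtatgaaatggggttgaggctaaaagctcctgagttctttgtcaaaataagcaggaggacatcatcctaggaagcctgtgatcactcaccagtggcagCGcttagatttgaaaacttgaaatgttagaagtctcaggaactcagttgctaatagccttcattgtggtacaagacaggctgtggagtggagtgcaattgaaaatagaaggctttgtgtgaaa
Sema3e: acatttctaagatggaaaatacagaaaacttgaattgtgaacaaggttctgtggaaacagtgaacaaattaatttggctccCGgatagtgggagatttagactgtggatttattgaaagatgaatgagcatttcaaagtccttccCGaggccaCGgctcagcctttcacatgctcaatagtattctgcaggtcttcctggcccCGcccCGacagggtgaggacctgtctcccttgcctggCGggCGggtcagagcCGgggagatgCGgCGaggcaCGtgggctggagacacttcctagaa
Sema3c: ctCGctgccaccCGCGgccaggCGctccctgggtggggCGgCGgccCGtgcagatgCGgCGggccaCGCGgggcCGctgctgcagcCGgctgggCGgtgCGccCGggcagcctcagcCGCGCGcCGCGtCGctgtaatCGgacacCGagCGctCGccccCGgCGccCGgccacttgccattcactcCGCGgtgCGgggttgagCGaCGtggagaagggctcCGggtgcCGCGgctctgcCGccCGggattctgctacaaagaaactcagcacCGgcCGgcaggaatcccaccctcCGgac
They held 8, 2, 11 and 42 CG dinucleotides in that order, with GC contents of 49.7%, 41.3%, 50.7% and 75.7%. The median over all 32851 RefSeq windows was 7 CG dinucleotides, and over 37 windows of the 26 family members that were matched it was 15. The family's windows ranged from 2 CG dinucleotides, in *Sema3a* and 1 of the 3 *Sema4d* windows, to 42 in *Sema3c*.

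*Sema3a*, a repellent for many axons, was at 88.3 and 159 CPM (LI) and 52.3 and 70.3 CPM (SI) in mesothelial cells. Other mesenchyme had 28.5 and 42.4 CPM (LI) and 14.6 and 22.9 CPM (SI), and smooth muscle 34.3 and 41.5 CPM (LI) and 21.7 and 40.7 CPM (SI). Neural cells were nearly without it, at 2.53 and 1.26 CPM (LI) and 3.04 and 1.84 CPM (SI). The lowest mesothelial sum lay above the highest mesenchymal one, with a log2 fold change of 1.75 ± 0.09 between the groups. *Sema3d* was also high in mesothelial cells, at 55.9 and 150.1 CPM (LI) and 64.97 and 67.1 CPM (SI), but its second site was the neural group, at 35.5 and 28.4 CPM (LI) and 13.9 and 10.8 CPM (SI). Its levels in other mesenchyme (2.21 to 7.18 CPM) and smooth muscle (2.25 to 11.2 CPM) were below every mesothelial sum, although the smooth muscle range overlapped the neural one, with log2 fold changes against other mesenchyme of 4.30 ± 0.26 for mesothelial and 2.35 ± 0.51 for neural cells.

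*Sema3e*, singled out after its values were seen, was found nearly alone in mesothelial cells, at 7.27 and 15.8 CPM (LI) and 11.8 and 19.6 CPM (SI), and at no more than 2.54 CPM in any other sum. *Sema3c*, which can attract neural crest cells and axons, had 29.8 and 41.9 CPM (LI) and 13.2 and 18.4 CPM (SI) in mesothelial cells. Other mesenchyme had 19.2 and 24.5 CPM (LI) and 3.06 and 3.36 CPM (SI), and smooth muscle 28.5 and 31.2 CPM (LI) and 1.96 and 3.45 CPM (SI), whereas neural cells had 3.38 and 9.69 CPM (LI) and 9.77 and 13.6 CPM (SI). *Sema3f*, the main *Nrp2* ligand, was at 14.99 to 21.5 CPM in mesothelial cells, 5.57 to 11.8 CPM in other mesenchyme and 0.434 to 2.15 CPM in neural cells. *Sema3b* reached 4.96 CPM and *Sema3g* 1.27 CPM in mesothelial cells, and *Sema3g* had 3 UMIs in that group.

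Among the membrane-bound semaphorins, *Sema6a*, which signals through *Plxna2* and *Plxna4*, was at 42.2 and 72.5 CPM (LI) and 26.9 and 48.3 CPM (SI) in other mesenchyme and at 61.5 and 86.05 CPM (LI) and 21.8 and 23.7 CPM (SI) in smooth muscle. Mesothelial cells had 11.2 and 20.1 CPM (LI) and 22.3 and 24.7 CPM (SI), and neural cells 9.29 and 20.6 CPM (LI) and 27.6 and 38.5 CPM (SI). *Sema4g*, a class 4 ligand, was low in every group, with 6.26 and 5.99 CPM (LI) and 1.80 and 3.42 CPM (SI) in other mesenchyme, 7.50 and 6.69 CPM (LI) and 3.23 and 3.26 CPM (SI) in smooth muscle, 5.95 and 3.95 CPM (LI) and 4.54 and 4.43 CPM (SI) in mesothelial cells and 3.38 and 5.74 CPM (LI) and 3.91 and 8.26 CPM (SI) in neural cells. *Sema5a*, named after its values were seen, was at 56.1 and 65.6 CPM (LI) and 27.4 and 46.5 CPM (SI) in other mesenchyme and at no more than 2.96 CPM in neural cells. *Sema4c*, a ligand of *Plxnb2*, ranged from 17.7 to 34.95 CPM over all 16 sums. *Sema6d* ranged from 18.1 to 20.5 CPM in other mesenchyme to 3.47 to 5.20 CPM in neural cells. *Sema6b* had no UMI in mesothelial cells, and a count of 0 there allows up to 0.321 CPM over the group.

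Members counted as apart were those at least 2-fold different from other mesenchyme by the fitted fold change, with the 4 sums of 1 group all above the 4 of the other. In mesothelial cells 8 of 27 fitted members were higher (7.44% of all genes fitted) and 6 were lower (4.20% of all). The 8 were *Sema3a*, *Sema3b*, *Sema3d*, *Sema3e*, *Sema3f*, *Sema4d*, *Sema4f* and *Plxnb1*, and the 6 were *Sema6a*, *Sema6d*, *Nrp1*, *Plxna2*, *Plxnc1* and *Plxnd1*. In neural cells 4 of 26 were higher (8.62% of all genes) and 9 were lower (12.8% of all). The 4 were *Nrp1*, *Plxna4*, *Sema3d* and *Sema4d*. The 9 lower ones were *Nrp2*, *Plxna2*, *Plxnb2*, *Plxnc1*, *Plxnd1*, *Sema3a*, *Sema3f*, *Sema5a* and *Sema6d*. In smooth muscle, *Plxna2* alone was higher (0.650% of all genes) and *Nrp1* alone was lower (1.64% of all) among 26 members. The higher members were 2 with no filter on low counts and without LI replicate 1 or LI replicate 2. In these settings 106, 204 and 109 genes were higher in all, against 85. These counts describe groups built from the same cells and carry no test.

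**Figure D2:**
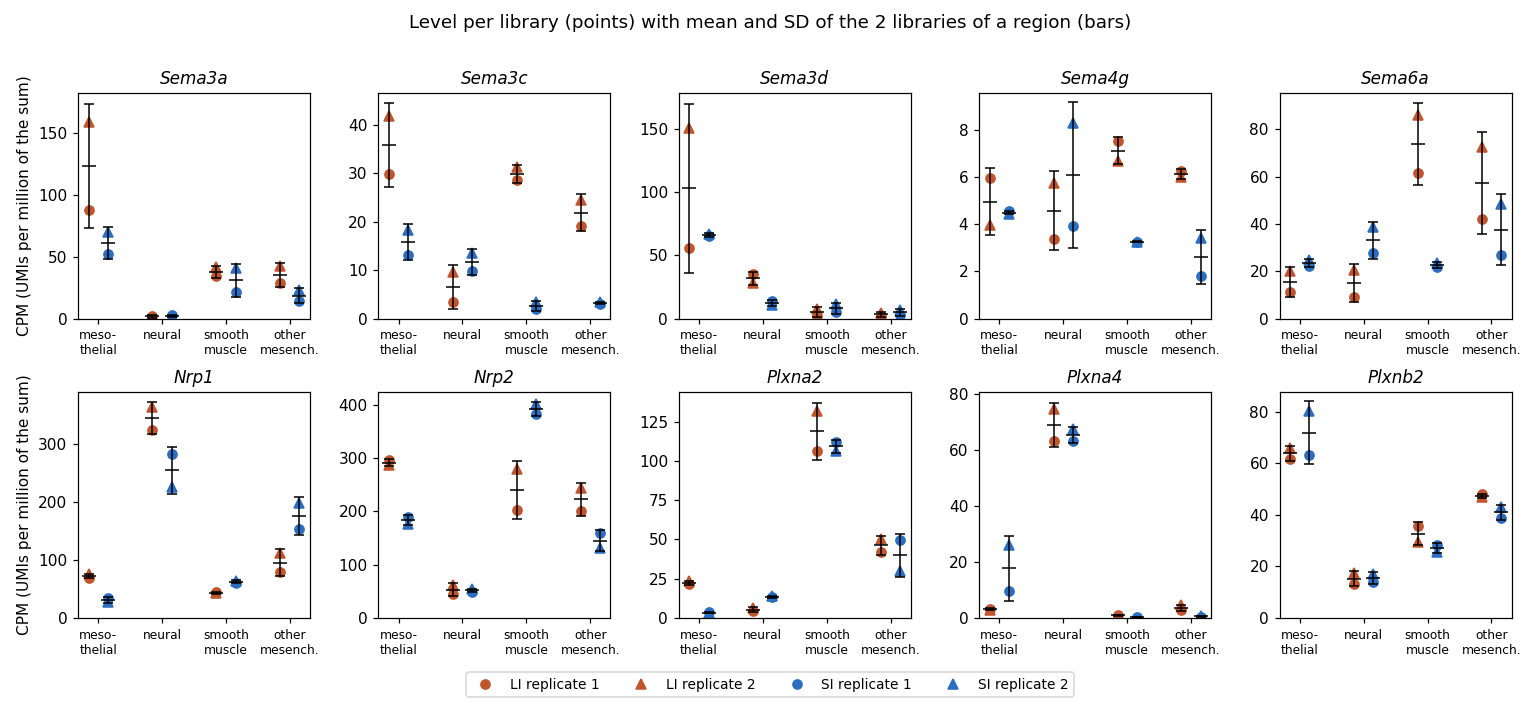
CPM (linear axis) of 10 family members in each library, 1 panel per gene. Points are LI and SI libraries in mesothelial, neural, smooth muscle and other mesenchymal cells. Bars give the mean and SD of each region's libraries. *Nrp1* and *Plxna4* are highest in neural cells, *Plxna2* in smooth muscle, and *Sema3a* and *Sema3d* in mesothelial cells.

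The share of cells with at least 1 UMI was compared after thinning each cell to 3000 UMIs, because median depth ran from 11108 to 19853 UMIs per library in neural cells against 4136 to 9105 in other mesenchyme, 4220 to 8724 in smooth muscle and 4306 to 8918 in mesothelial cells. Thinning left out 1.25% to 18.1% of other mesenchymal cells and 1.14% to 3.64% of neural cells per library. *Nrp1* was detected in 42.5% to 63.2% of thinned neural cells (79.8% to 96.2% before thinning) and in 7.65% to 15.6% of mesothelial cells (16.8% to 35.4% before), a range that overlapped that of smooth muscle cells (mean 13.04% ± 2.10, SD, n = 4 libraries, and 16.2% to 34.05% before). *Nrp2* was detected in 39.4% to 64.7% of smooth muscle cells (49.9% to 87.1% before) and in 11.2% to 15.7% of neural cells (34.1% to 61.4% before). *Plxna4* was found in 16.5% to 21.1% of neural cells (44.7% to 63.3% before) and in 0% to 0.261% of smooth muscle cells (0.101% to 0.757% before).

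*Plxna2* was found in 25.7% to 31.8% of thinned smooth muscle cells (35.01% to 58.5% before) and 0% to 5.85% of mesothelial cells (2.89% to 15.2% before). Among the ligands, *Sema3a* was found in 15.2% to 36.7% of mesothelial cells (32.1% to 69.2% before) and 0% to 0.943% of neural cells (2.29% to 3.99% before), and *Sema3d* in 16.3% to 32.3% of mesothelial (20.2% to 56.96% before) and 0.563% to 1.95% of other mesenchymal cells (0.967% to 5.48% before). *Sema6a* was found in 8.20% to 17.8% of other mesenchymal cells (15.3% to 38.5% before) and 3.19% to 8.24% of mesothelial cells (4.98% to 18.1% before). Most cells of a group therefore held no UMI of a given semaphorin at this depth, which does not show that they lacked the transcript.

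Other mesenchyme was not uniform. Its cluster 3, led by *Bmp3* and *Col14a1*, had *Sema3a* at 94.7 and 147 CPM (LI) and 59.4 and 72.9 CPM (SI), overlapping the mesothelial range. In cluster 4, led by *Anxa2*, *Tac2* and *Wnt4*, *Sema3a* was at 5.80 and 8.33 CPM (LI) and 1.76 and 1.04 CPM (SI). *Nrp1* was at 151 and 156 CPM (LI) and 222 and 284 CPM (SI) in cluster 4 and at 27.5 and 17.3 CPM (LI) and 44.4 and 76.00 CPM (SI) in cluster 3. *Nrp2* was at 61.2 and 73.5 CPM (LI) and 21.7 and 35.99 CPM (SI) in cluster 4 and at 140.3 and 166 CPM (LI) and 177 and 166 CPM (SI) in cluster 3. Of the 5 mesenchymal clusters, the one with the most *Nrp1* had the least *Nrp2* and *Sema3a*, and the ranges of the 2 clusters did not overlap for any of these 3 genes. In cluster 4 the ranges of *Nrp1* and *Nrp2* both overlapped those of the neural group. These values describe clusters of the same cells and carry no test.

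Neural cells fell into 2 clusters. Cluster 7 (955 cells) was led by *Foxd3* and *Sox10*, genes of enteric neural crest progenitors, and cluster 8 (291 cells) by *Stmn2* and *Tubb3*, genes of differentiating neurons. *Plxna4* was at 102 and 160.3 CPM (LI) and 135 and 138 CPM (SI) in cluster 8 and at 56.1 and 54.96 CPM (LI) and 43.01 and 44.6 CPM (SI) in cluster 7. *Sema6a* was at 29.5 and 63.4 CPM (LI) and 86.7 and 109 CPM (SI) in cluster 8 and at 5.51 and 10.8 CPM (LI) and 10.6 and 15.3 CPM (SI) in cluster 7. *Nrp1* was high in both, at 334 to 473 CPM in cluster 8 and 191 to 359.8 CPM in cluster 7. Both *Plxna4* and *Sema6a* were thus higher in every library of the *Stmn2* cluster than in any of the *Sox10* cluster.

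**Figure D3:**
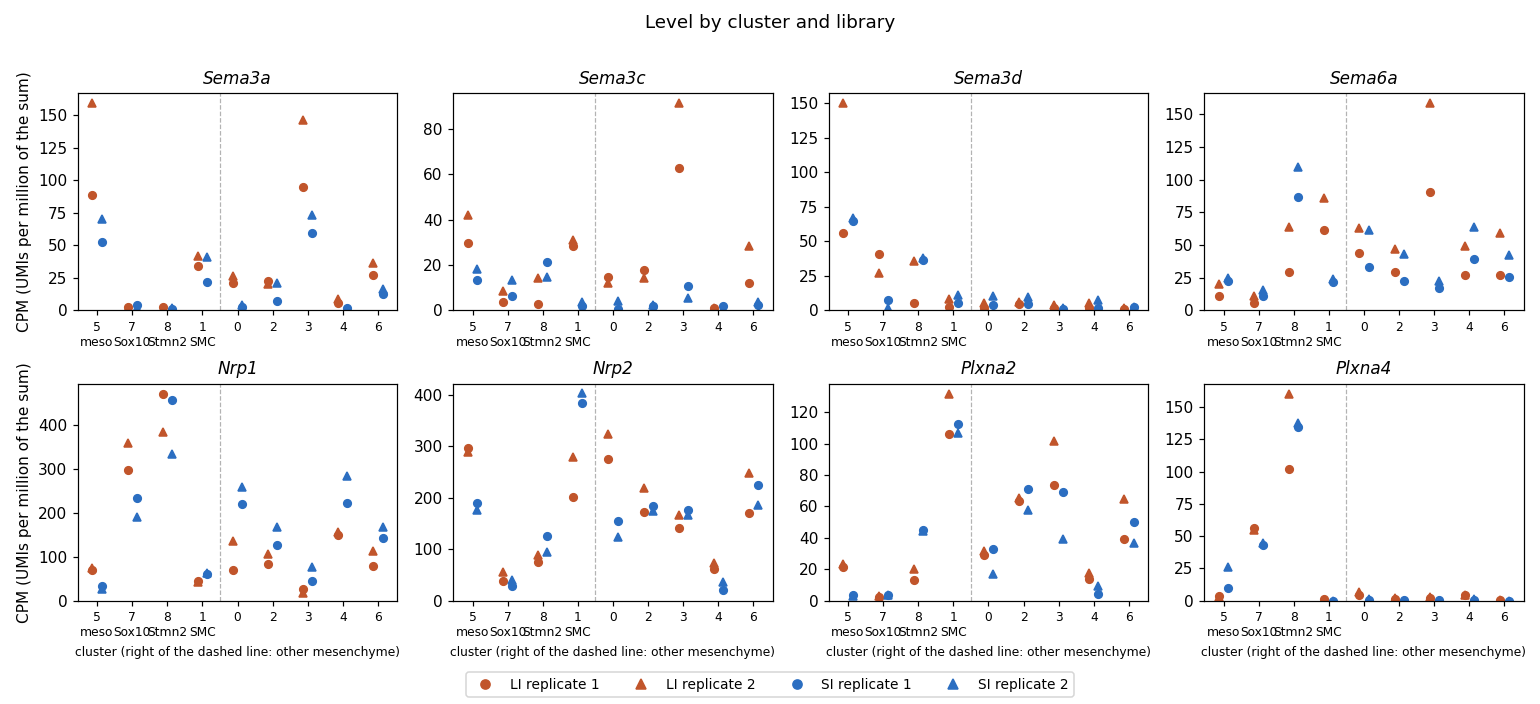
CPM of each library (points) for selected family members in clusters 0 to 8, ordered by cell group. *Sema3a* is as high in mesenchymal cluster 3 as in mesothelial cluster 5, and *Plxna4* is highest in neural cluster 8.

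To compare the family along the gut, SI and LI sums were tested in each group by edgeR's quasi-likelihood test, with p-values adjusted over all genes tested. In other mesenchyme 3 of 28 tested members were called (background 3.19% of all genes). *Sema3c* was at 21.9 ± 3.82 CPM in LI and 3.21 ± 0.217 CPM in SI (mean ± SD, n = 2 libraries each). It fell in SI by a log2 fold change of −2.61 ± 0.21 (± SE, edgeR adjusted p = 0.00149). *Plxna4* was lower in SI as well (−2.54 ± 0.39, edgeR adjusted p = 0.0175), from 57 and 133 UMIs in the LI sums and 12 and 24 in the SI sums. *Nrp1* rose in SI (1.04 ± 0.21, edgeR adjusted p = 0.0416), a call that was lost in 2 of 12 alternatives, at resolution 0.6 (log2 fold change 1.00, adjusted p = 0.0510) and without SI replicate 2 (0.88, adjusted p = 0.126). Its thinned shares of cells were 18.03% and 22.8% in LI and 32.5% and 40.9% in SI.

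Markers of other groups also moved with region in other mesenchyme. The mesothelial list summed to 73.9 to 136 CPM in LI and 40.2 to 59.5 CPM in SI (13 of 14 markers detected, *Msln* at 0). The neural list summed to 52.4 to 78.8 CPM in LI and 124 to 164 CPM in SI (18 of 18 detected). The 13 smooth muscle markers summed to 1003 to 1343 CPM in LI and 1436 to 2273 CPM in SI, the 5 pericyte markers to 36.8 to 53.9 CPM and 60.5 to 133 CPM and the 3 markers of interstitial cells of Cajal to 119 to 165 CPM and 98.6 to 111 CPM. Epithelial, endothelial and immune lists, at 21.7 CPM or less, did not overlap between regions either. The part of these lists in the differences of *Sema3c*, *Plxna4* and *Nrp1* was not tested. Cluster makeup differed too, since cluster 0 held 36.96% and 36.8% of kept LI cells and 19.7% and 22.1% of kept SI cells. Within cluster 3, *Sema3c* was at 62.7 and 91.4 CPM (LI) and 10.5 and 5.31 CPM (SI), and within cluster 0 it was at 14.8 and 12.1 CPM (LI) and 0.568 and 4.09 CPM (SI). *Nrp1* within cluster 0 was at 70.1 and 135 CPM (LI) and 222 and 259.6 CPM (SI). With the makeup of clusters made equal across libraries, all 3 members remained called, as they did without clusters 3 and 6.

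In CPM, without edgeR's scaling between libraries, the sums of more members, as of more genes, lay towards LI than towards SI in other mesenchyme. Both LI sums lay above both SI sums for 14 of 28 tested members (38.4% of all genes tested), and the reverse held for 2 (13.8% of all). With that scaling, the median log2 fold change was −0.25 over the members and 0.01 over all genes. Genes in general thus leaned to neither region in the fit. In smooth muscle the 2 counts were 11 and 3 of 24 members (34.1% and 12.1% of all genes), in mesothelial cells 8 and 4 of 20 (25.1% and 16.4%) and in neural cells 6 and 6 of 21 (14.5% and 24.4%). In other mesenchyme 11 of the 28 members reached an unadjusted p under 0.05 (17.4% of all genes).

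In smooth muscle 2 of 24 tested members were called, both lower in SI (background 1.71% of all genes). *Sema3c* averaged 29.8 ± 1.88 CPM in LI and fell in SI to 2.70 ± 1.05 CPM (−3.29 ± 0.30 on the log2 scale, edgeR adjusted p = 0.00143). *Sema6a* fell from 73.8 ± 17.3 to 22.7 ± 1.36 CPM (−1.56 ± 0.22, edgeR adjusted p = 0.0106), with 15.4% and 20.2% of thinned LI cells and 6.16% and 6.44% of thinned SI cells positive. In smooth muscle the 13 smooth muscle markers summed to 1809 to 6200 CPM in LI and 5378 to 11125 CPM in SI. The mesothelial list summed to 44.7 to 123 CPM in LI and 16.6 to 29.00 CPM in SI (13 of 14 detected, *Msln* at 0), and the neural list to 38.8 to 128 CPM in LI and 191 to 274 CPM in SI (18 of 18 detected). The part of these lists in the differences of *Sema3c* and *Sema6a* was not tested. *Sema6a* showed the same order in mesenchymal cluster 3, at 90.2 and 159 CPM (LI) and 16.9 and 22.6 CPM (SI), but not in cluster 0, at 43.5 and 62.95 CPM (LI) and 33.4 and 61.5 CPM (SI). *Nrp2* had higher SI sums without passing the test (0.85 ± 0.20, edgeR adjusted p = 0.0929).

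In mesothelial cells 1 of 20 tested members was called (background 0.948% of all genes). *Plxna2* was lower in SI (−2.62 ± 0.37, edgeR adjusted p = 0.00887), with 65 and 59 UMIs in the LI sums and 8 and 5 in the SI sums. The 13 smooth muscle markers in mesothelial cells summed to 616 to 914 CPM in LI and 429.8 to 545 CPM in SI, all 13 detected. The 3 markers of interstitial cells of Cajal summed to 56.5 to 88.5 CPM in LI and 24.99 to 39.3 CPM in SI, the 10 mesenchyme or fibroblast markers to 1448 to 2408 CPM and 2595 to 3665 CPM and the 14 mesothelial markers to 2482 to 2832 CPM and 2847 to 3001 CPM. The 4 urogenital markers summed to 3.16 to 4.63 CPM in LI and 0 to 0.633 CPM in SI, and the 7 immune markers to 1.323 to 1.975 CPM and 3.18 to 5.067 CPM. The part of these lists in the *Plxna2* difference was not tested. With doublets kept this difference was smaller and was no longer called (−1.51, edgeR adjusted p = 0.0528). *Nrp1* (−1.13 ± 0.23, edgeR adjusted p = 0.0540) and *Plxna4* (2.53 ± 0.53, edgeR adjusted p = 0.0545, from 10 and 7 UMIs in LI and 21 and 41 in SI) did not pass, and 6 members had an unadjusted p under 0.05 (11.1% of all genes). Neural markers in mesothelial cells summed to 19.8 to 24.5 CPM in LI and 22.8 to 24.5 CPM in SI, and their part in the *Plxna4* values was not tested.

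In neural cells edgeR called 0 of 21 tested members (background 0.310% of all genes), with 5 at an unadjusted p under 0.05 (8.30% of all genes), and DESeq2 called 1. *Sema3d* came nearest (−1.42 ± 0.26, edgeR adjusted p = 0.0706), and its values are given for both neural clusters. In cluster 7 it was at 41.1 and 26.7 CPM (LI) and 7.54 and 1.95 CPM (SI), with −2.87 ± 0.49 and an edgeR adjusted p of 0.0466 when that cluster was tested alone, a choice made after seeing the data. In cluster 8 it was at 5.37 and 35.5 CPM (LI) and 36.1 and 37.95 CPM (SI). Cluster 8 held 20% and 21.2% of neural cells in LI and 24.5% and 25.5% in SI.

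**Figure D4:**
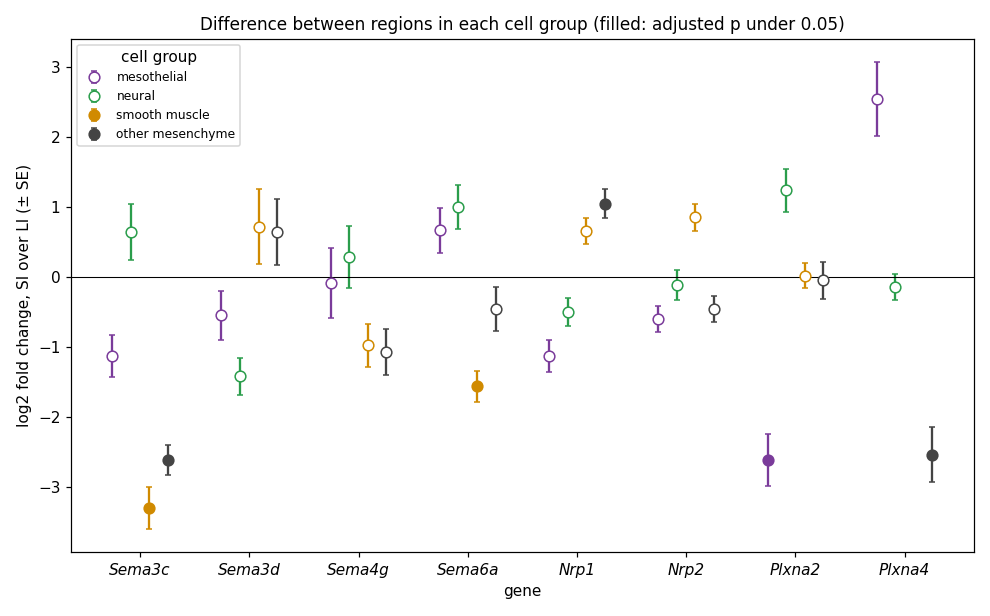
Log2 fold change of SI over LI (± SE, edgeR) for the 8 members called in a test of regions or of the interaction. Each is shown in the cell groups where it was tested, with calls between regions filled. *Sema3c* lies far to the LI side in other mesenchyme and smooth muscle, and *Nrp1* is to the SI side in other mesenchyme but to the LI side in mesothelial and neural cells.

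Whether the regional difference itself differed between groups was tested by the interaction of region and group, each group against other mesenchyme, with library as a block. These 3 tests share the mesenchymal sums. For smooth muscle 2 of 27 members were called (background 1.00%). *Nrp2* had a larger SI over LI ratio in smooth muscle (difference in log2 fold change 1.34 ± 0.12, edgeR adjusted p = 0.00244), being lower in SI than LI in every mesenchymal sum and higher in SI in every smooth muscle sum. *Sema6a* had a smaller ratio in smooth muscle (−1.07 ± 0.18, edgeR adjusted p = 0.0270), which was −0.70 without SI replicate 2 (adjusted p = 0.00288) and −1.55 without clusters 3 and 6 (adjusted p = 0.00539).

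For mesothelial cells 6 of 27 members were called (background 5.51%). *Nrp1* differed by −2.19 ± 0.19 (edgeR adjusted p = 7.84e-10), with SI above LI in mesenchyme and below it in mesothelium. *Plxna2* (−2.66 ± 0.34, edgeR adjusted p = 2.23e-06) and *Sema3d* (−1.16 ± 0.27, edgeR adjusted p = 0.00647) also had smaller SI over LI ratios in mesothelial cells. With doublets kept the *Plxna2* difference was −1.58 (adjusted p = 0.00150). *Plxna4* (5.05 ± 0.53, edgeR adjusted p = 4.03e-08), *Sema3c* (1.45 ± 0.29, edgeR adjusted p = 0.00123) and *Sema6a* (1.14 ± 0.25, edgeR adjusted p = 0.00351) had larger ones. The call for *Sema3d* was lost in 3 of 10 alternatives, with DESeq2 and without LI replicate 2 (−0.91, adjusted p = 0.237) or SI replicate 2 (−0.48, adjusted p = 0.519). That for *Sema6a* was also lost in 3 of 10, with DESeq2, without clusters 3 and 6 (0.67, adjusted p = 0.187) and without SI replicate 1 (0.79, adjusted p = 0.146).

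For neural cells 7 of 27 members were called, against a background of 11.6% of all genes. *Sema3c* had the largest difference (3.30 ± 0.32, edgeR adjusted p = 9.27e-05), and its neural means were 6.53 CPM in LI and 11.7 CPM in SI. *Plxna4* (2.43 ± 0.30, edgeR adjusted p = 0.000320), *Sema6a* (1.55 ± 0.20, edgeR adjusted p = 0.000470) and *Plxna2* (1.39 ± 0.30, edgeR adjusted p = 0.0115) likewise had larger SI over LI ratios in neural cells. *Nrp1* went the other way (−1.52 ± 0.20, edgeR adjusted p = 0.000530), as did *Sema3d* (−1.94 ± 0.52, edgeR adjusted p = 0.0296). The *Sema3d* call was lost with DESeq2, in cluster 8 alone and without SI replicate 2 (−1.01, adjusted p = 0.0979), and the *Plxna2* call was lost in cluster 7 alone (0.54, adjusted p = 0.496). *Sema4g* (1.34 ± 0.39, edgeR adjusted p = 0.0442) lost its call in 8 of 12 alternatives, among them DESeq2, resolution 0.6, doublets kept, other mesenchyme without clusters 3 and 6 and each neural cluster alone, with log2 differences of 0.90 to 1.90 and adjusted p of 0.0109 to 0.494 over all 12. Without LI replicate 1 the difference was 1.10 (adjusted p = 0.114), and without SI replicate 2 it was 1.28 (adjusted p = 0.206).

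Of 43 genes on a list of the pathway's co-receptors, effectors and other neuropilin ligands, 42 were listed in the counts. In other mesenchyme 41 were tested, of which edgeR called 3, all lower in SI (3.19% of all genes). The count was 2 without clusters 3 and 6, 4 with a replicate block and 5 with no filter, all lower in SI. In these settings 403, 1612 and 1544 genes were called in all. Without LI replicate 2, calls went in both directions. *Chl1*, a cell adhesion co-receptor of *Nrp1*, had 233 and 332 UMIs in the LI sums and 2 and 21 in the SI sums (−4.83 ± 0.57, edgeR adjusted p = 0.00592). *Met*, which associates with B-type plexins, was at 5.75 and 4.58 CPM in LI and 1.15 and 0.931 CPM in SI (−2.15 ± 0.31, edgeR adjusted p = 0.0146). *Dpysl3*, a collapsin response mediator that relays semaphorin signals to the cytoskeleton, was at 61.05 and 43.4 CPM in LI and 21.5 and 20.3 CPM in SI (−1.17 ± 0.23, edgeR adjusted p = 0.0375). Of the list, 2 of 36 tested genes were lower in SI in smooth muscle (1.71% of all genes). Only 1 was at resolution 0.6 and with doublets kept (165 and 187 genes called in all). In mesothelial cells 1 of 33 was lower (0.948%), and 2 were at resolution 0.6 (123 genes called in all). A replicate block also gave 1 gene higher in SI in each of these 2 groups, and leaving out libraries moved both counts. In neural cells edgeR and DESeq2 both called 0 of 34 (0.310% of all genes by edgeR). There 4 had an unadjusted p under 0.05 in edgeR (8.30% of all genes).

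Ligands and receptors known to pair were set side by side, as each group's percent of the sum of a gene's 4 group means. This gives equal weight to groups of unequal size and says nothing of protein or contact. For *Sema3a*, 59.2% of this sum lay in mesothelial cells, and its receptor genes *Nrp1* and *Plxna4* had 55.5% and 83.8% of theirs in neural cells, which held only 1.39% of *Sema3a*. By UMIs, other mesenchyme, the largest group, held the most of both, with 3017 *Sema3a* UMIs against 896 in mesothelial cells and 16008 *Nrp1* UMIs against 5338 in neural cells. Its average also hides clusters, as *Sema3a* was at 59.4 to 147 CPM in the 2044 cells of cluster 3 and *Nrp1* at 151 to 284 CPM in the 1815 cells of cluster 4. The other receptor genes of *Sema3a* had their largest part elsewhere, *Plxna1* (39.1%) and *Plxna3* (32.6%) in mesothelial cells and *Plxna2* in smooth muscle. *Sema3d*, another *Nrp1* ligand, had 71.9% in mesothelial and 18.8% in neural cells. *Sema3f* had 52.1% in mesothelial cells, and its co-receptor gene *Nrp2* had 40.1% in smooth muscle and 30.1% in mesothelial cells. *Sema3e* had 86.1% in mesothelial cells, whereas *Plxnd1* had 37.99% in other mesenchyme and 35.5% in smooth muscle. *Sema6a* had 34.6% in smooth muscle and 34.1% in other mesenchyme, and *Plxna2* had 63.6% in smooth muscle. These shares pool the regions, and the mean *Sema6a* level of smooth muscle was above that of other mesenchyme in LI (73.8 against 57.4 CPM) and below it in SI (22.7 against 37.6 CPM). *Sema4c* was spread over the 4 groups, from 20.3% to 31.7%, and its receptor gene *Plxnb2* had 43.2% in mesothelial cells.

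**Figure D5:**
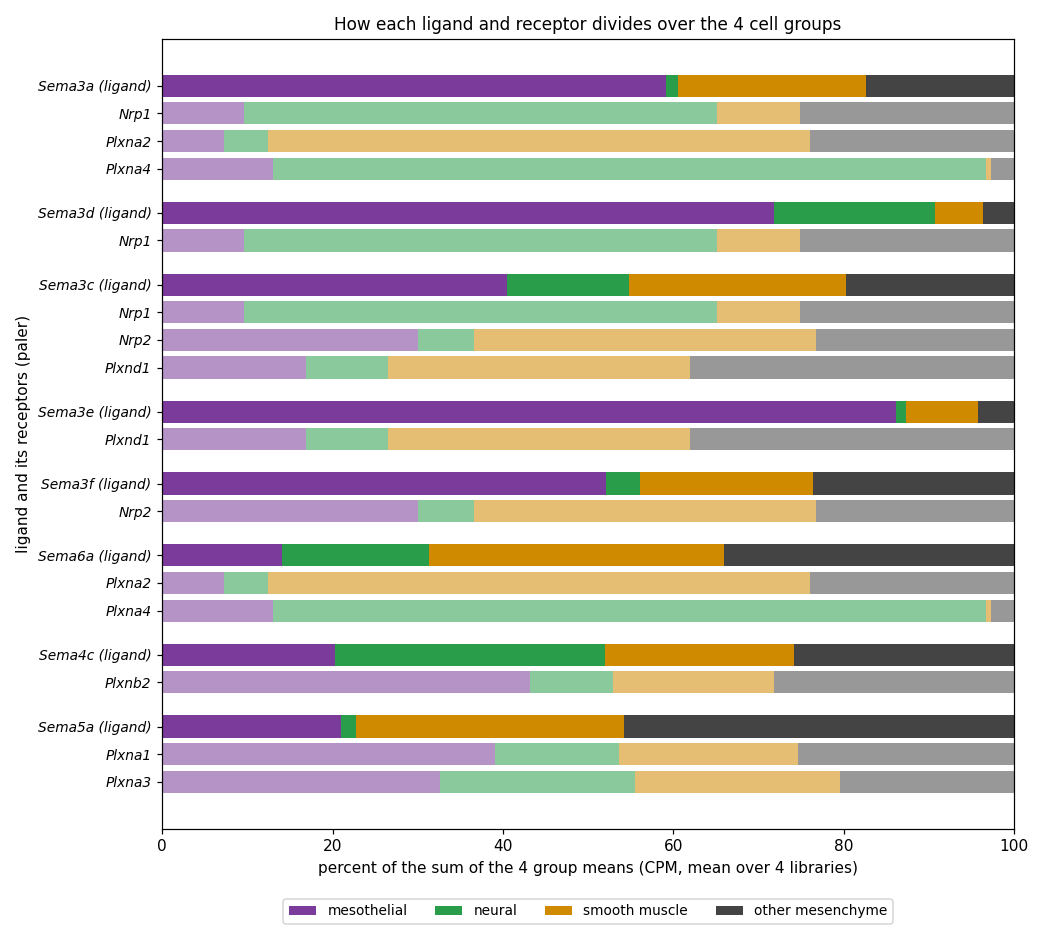
Percent of each gene's summed group means found in other mesenchyme, smooth muscle, mesothelial and neural cells, for selected ligands beside their receptor genes. With the groups weighted equally, the largest part of *Sema3a* is mesothelial, that of *Nrp1* and *Plxna4* neural and that of *Plxna2* in smooth muscle.

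Receptor genes that act together were also looked for in the same cells, a check added after seeing the data. In thinned neural cells, *Nrp1* and *Plxna4* were both detected in 6.78% to 9.58% of cells per library, where the product of their shares gave 7.19% to 11.4%. In thinned smooth muscle cells, *Nrp2* and *Plxna2* were both detected in 8.07% to 18.97%, against 10.01% to 18.3% from the product of shares. Joint detection was thus close to the product in both groups.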

How the data were processed

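Mouse stromal cells were profiled with the 10x Genomics Chromium platform, with 3′ or 5′ chemistry, and the kit of each library is not given in the sources used here. The authors aligned reads to mm10 with Cell Ranger (3.1.0) and deposited raw UMI counts per gene and cell without normalization. In the study these were integrated with Seurat 3.

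Cells with at least 1000 detected genes and under 10% mitochondrial UMIs were kept. Scrublet (scanpy 1.11.5) marked only 1 to 6 doublets per library, so the top-scoring cells, at 0.8% per 1000 cells, were taken out (183 to 348 cells). Libraries were integrated through Seurat 5.3.0 anchors and clustered (Louvain, resolution 0.3) on 1978 genes, from which the 31 members and listed pathway genes had been taken out. The rule that turned markers into cluster names was set after the clusters were seen, and names may therefore differ from those of the study.

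Raw UMIs were summed per library and group. Regions were compared by edgeR 4.0.16 (quasi-likelihood, TMM, default filter, R 4.3.3) with Benjamini-Hochberg adjustment over all genes tested and calls at an adjusted p under 0.05. The study's single-cell marker test treats cells as replicates and was not used. Differences between groups are descriptions, as groups came from the same cells. Floors use 3 UMIs and cover counting error only. Values per library were given for members at 50 CPM or more in all 4 libraries of a group or called in a test of regions or interaction. Alternatives were RLE size factors, DESeq2 1.42.0, no filter, a replicate block, resolution 0.6, doublets kept, other mesenchyme without clusters 3 and 6, which a stricter naming rule leaves unnamed, thinning to 2000 UMIs and leaving out each library. The family and the gene lists were chosen with earlier results of these data known, although the members were then taken by symbol alone. Of the listed gene identifiers, 28339 were found in the annotation of the same build, including all 31 members. Promoter windows are from RefSeq.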

Additional observations from a re-analysis of the deposited data

Results flagged for a closer look

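Several members were marked for a closer look because their SI over LI difference in a group differed from that in other mesenchyme by a test of the interaction. In mesothelial cells the differences in log2 fold change were −2.19 for *Nrp1*, −2.66 for *Plxna2*, −1.16 for *Sema3d*, 5.05 for *Plxna4*, 1.45 for *Sema3c* and 1.14 for *Sema6a*. In neural cells they were 3.30 for *Sema3c*, 2.43 for *Plxna4*, 1.55 for *Sema6a*, 1.39 for *Plxna2*, 1.34 for *Sema4g*, −1.52 for *Nrp1* and −1.94 for *Sema3d*. In smooth muscle they were 1.34 for *Nrp2* and −1.07 for *Sema6a*. The same mesenchymal sums enter all 3 tests, so calls for 1 gene in several groups are not independent. *Nrp1* was higher in SI in other mesenchyme and lower in SI in mesothelial and neural sums, in every library.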

How the results depend on the processing

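Of 21 calls of members in the tests of region and interaction, 14 kept their direction and their call under every alternative run. The calls lost somewhere were *Nrp1* between regions in other mesenchyme, *Plxna2* between regions in mesothelial cells (with doublets kept), *Sema3d* and *Sema6a* in the mesothelial interaction and *Plxna2*, *Sema3d* and *Sema4g* in the neural interaction. *Sema3d* in the neural interaction turned to 0.16 on the log2 scale in the *Stmn2* cluster alone, a setting chosen after seeing the data, against −3.42 in the *Sox10* cluster alone.

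Counts of members called between regions, at 3 in other mesenchyme, 2 in smooth muscle, 1 in mesothelial and 0 in neural cells, went to 6, 6, 5 and 3 with no filter on low counts. In mesothelial cells the count was 2 with RLE size factors and 3 each with DESeq2 and at resolution 0.6. There 100, 117 and 123 genes were called in all. In neural cells the count was 1 with DESeq2 and 1 in the *Sox10* cluster alone (44 genes called in all). Leaving out each library in turn gave 3 to 9 members in other mesenchyme (9 without LI replicate 1, 8 without LI replicate 2), 2 to 6 in smooth muscle (6 without LI replicate 2), 2 to 5 in mesothelial cells (5 without either LI library, 2 without either SI library) and 0 to 4 in neural cells (4 without LI replicate 2, 1 without LI replicate 1 or SI replicate 1). The smooth muscle interaction had 2 member calls among 137 genes called in all, and both counts rose most when SI replicate 1 was left out. The cause was not tested. The genes called in all moved as well, from 447 in other mesenchyme, 210 in smooth muscle, 101 in mesothelial and 35 in neural cells to 1544, 885, 431 and 362 with no filter and to 2272, 1183, 943 and 1473 without LI replicate 2. Over the libraries left out in turn they ran from 484 to 2272, 272 to 1183, 115 to 943 and 0 (without SI replicate 2) to 1473, and with DESeq2 103 genes were called in neural cells.

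Replicate numbers are shared by the regions, but the labels do not say that a number marks a shared litter or day, and with 2 pairs (correlation of same-numbered deviations 0.23 to 0.40) the samples were taken to share only a number. A replicate block raised the members called between regions to 8 in other mesenchyme, 9 in smooth muscle, 7 in mesothelial and 3 in neural cells, while the genes called in all rose to 1612, 1234, 766 and 408. Depth limits the members below 10 CPM, of which several could not be tested, and the detected shares of cells, of which 13 pairs of gene and group reached 10% in every library at 3000 UMIs and 9 at 2000 UMIs.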

Other observations

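A cluster of 171 cells stayed unnamed and entered no group in the comparisons. It was led by *Pf4*, *Afp*, *Alb* and hemoglobin genes and held 3.17% of kept cells in LI replicate 2 and 0.115%, 0.273% and 0.0640% in LI replicate 1 and SI replicates 1 and 2. *Plxna2* in the *Stmn2* cluster of neural cells was at 13.4 and 20.2 CPM in LI and 44.8 and 44.7 CPM in SI, and its regional difference in that cluster alone did not pass the test (1.28 ± 0.35, edgeR adjusted p = 0.135).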
